A study of Mus musculus with 20 samples.

Results

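Transcripts of 9 inflammatory cytokine genes, among them the agonists and the antagonist of the interleukin-1 (IL-1) system, were followed in RAW264.7, a mouse cell line of the monocyte and macrophage lineage. The line can become osteoclasts, the bone-resorbing cells, under RANKL, the cytokine that drives this fate. The genes were chosen by symbol, as Il1a, Il1b, Il1rn, Il18, Tnf, Csf1, Il6, Osm and Lif, out of 50686 genes in the deposited count table. In the groups of the design, cells received RANKL (50 ng per ml) together with the BET inhibitor I-BET (500 nM), RANKL alone or I-BET alone for 4, 14 or 24 hours, or were taken untreated at hour 0. These 10 groups held 2 libraries each, 20 in all, with 19051780 to 62313792 counts per library. All libraries came from this cell line, although the source is labelled as bone marrow, and the labels do not say whether the libraries of a group came from separate cultures. The p-values therefore measure the spread between these libraries, which may be technical. Untreated cells were sampled at hour 0 only, so the effect of a treatment and that of time in culture cannot be told apart in any comparison with them, and those comparisons share the same pair of untreated libraries.

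IL-1 alpha and IL-1 beta, encoded by Il1a and Il1b, signal through one receptor complex, and the product of Il1rn occupies that receptor without signalling. IL-18, a relative of IL-1 beta, is likewise made as a precursor that inflammatory caspases cleave. TNF and IL-1 support osteoclast formation alongside RANKL, CSF-1 is the growth and survival factor of the monocyte lineage, and IL-6, oncostatin M and LIF share the signalling chain gp130. BET proteins are bromodomain proteins that bind acetylated histones and help RNA polymerase II to elongate. BET inhibitors displace them from chromatin.

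The bases upstream of the transcription start are shown for Il1rn, which had the largest called fall of these genes under I-BET, and for Il1a, Il1b and Tnf, which were called higher at 4 hours of RANKL alone. Promoters came from RefSeq (GRCm38.p6), which matched 8 of the 9 genes in 10 windows of 250 bases before a start. Capitals mark an AP-1 motif (TGANTCA) or a TATA box (TATAAA), searched on both strands.
Il1rn upstream start, chr2:24336610-24336859, plus strand: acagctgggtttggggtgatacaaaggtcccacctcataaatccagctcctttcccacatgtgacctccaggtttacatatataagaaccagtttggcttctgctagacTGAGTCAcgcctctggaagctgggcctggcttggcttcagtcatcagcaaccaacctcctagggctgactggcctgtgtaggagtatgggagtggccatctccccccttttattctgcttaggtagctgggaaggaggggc
Il1a, chr2:129309973-129310222, minus strand: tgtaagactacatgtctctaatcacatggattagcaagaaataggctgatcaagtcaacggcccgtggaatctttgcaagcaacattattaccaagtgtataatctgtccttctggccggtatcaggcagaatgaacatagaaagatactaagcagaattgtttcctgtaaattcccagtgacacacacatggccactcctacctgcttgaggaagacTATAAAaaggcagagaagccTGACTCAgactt
Il1b, chr2:129371140-129371389, minus strand: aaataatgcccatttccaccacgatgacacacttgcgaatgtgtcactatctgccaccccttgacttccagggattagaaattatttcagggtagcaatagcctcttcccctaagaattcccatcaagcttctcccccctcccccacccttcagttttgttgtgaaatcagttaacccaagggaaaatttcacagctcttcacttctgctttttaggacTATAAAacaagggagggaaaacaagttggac
Tnf, chr17:35202008-35202257, minus strand: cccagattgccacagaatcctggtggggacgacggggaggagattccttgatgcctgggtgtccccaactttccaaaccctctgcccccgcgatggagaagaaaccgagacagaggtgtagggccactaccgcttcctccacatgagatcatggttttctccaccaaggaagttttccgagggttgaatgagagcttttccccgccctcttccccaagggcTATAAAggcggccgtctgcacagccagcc

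An AP-1 motif lay in 4 of the 10 windows (those of Il1a, Il6, Lif and the upstream start of Il1rn), against 6.75% of 32851 promoter windows of this length. TATAAA lay in 4 of the 10 (Il1a, Il1b, Il18 and Tnf), against 12.4% of windows. The Il1rn windows of its further starts, which begin at bases 24345041 and 24345121, held neither motif. The Il18 window ends at base 50554699 of chromosome 9, before the gene start of 50575273 in the deposited annotation. Its match is on the other strand, at position -175. These matches describe letters and not bound sites. Short-lived cytokine transcripts often carry AU-rich elements in the 3′ untranslated region. The nonamer TTATTTATT was found in that region of Tnf (5 times) and of Lif (2 times), and in 7% of 20896 genes of GENCODE M21. The first nonamer of each is shown in capitals with its flanks.
Tnf, chromosome 17: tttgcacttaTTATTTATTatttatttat
Lif, chromosome 11: aaaggggcctTTATTTATTatttaaaact

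Levels per gene length differed widely among the 9 genes. By the median RPKM (reads per kilobase of transcript, scaled to library size) over the 20 libraries the order was Tnf at 29.9, Il18 at 6.81, Il1rn at 2.77, Osm at 0.828, Il1b at 0.0552, Il1a at 0.0510, Lif at 0.0445, Csf1 at 0.0371 and Il6 at 0 RPKM. The last 5 of these had few reads, and their ranges over the libraries overlapped. In each of 13 libraries Il6 had no count, and it reached at most 4 counts elsewhere. Of the 9 genes 8 passed the filter on low counts. Il1a passed it through the 2 libraries of RANKL alone at 4 hours only. Il1b passed it through 4 libraries, those of RANKL alone and of RANKL plus I-BET at 4 hours. Lif did so through 10 and Csf1 through 9 libraries, while Il1rn, Il18, Tnf and Osm were above it in all 20. Counts over the tested genes below are therefore descriptions.

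The cells carried macrophage transcripts in every library. All 7 measured genes of a macrophage list were present, with Csf1r at 1118 to 2356 CPM (counts scaled to library size) and Lyz2 at 817 to 5913 CPM. Markers of other cell types summed to at most 2.04 CPM, with Krt18, Col3a1, Hbb-bs and Ms4a2 among those at 0 throughout. The 8 osteoclast markers, 7 of them tested, summed to 14.5 to 22.2 CPM with RANKL plus I-BET at 14 hours, against 248 to 326 CPM with RANKL alone. The macrophage list summed to 5775 to 7428 CPM with RANKL plus I-BET, against 3806 to 4997 CPM with RANKL alone. All 7 tested osteoclast markers were called lower with RANKL plus I-BET at 24 hours, and 3 macrophage markers higher and 1 lower. Whether this difference bears on the cytokine genes was not tested, and in bulk RNA fewer cells of a type and less RNA per cell cannot be told apart. In untreated library 2, 10.1% of the counts fell on 5 genes grouped here as related to ribosomal RNA, which took 0.37% to 1.19% elsewhere. They include mt-Rnr1 and mt-Rnr2 and also Lars2, a protein-coding gene.

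**Figure D1:**
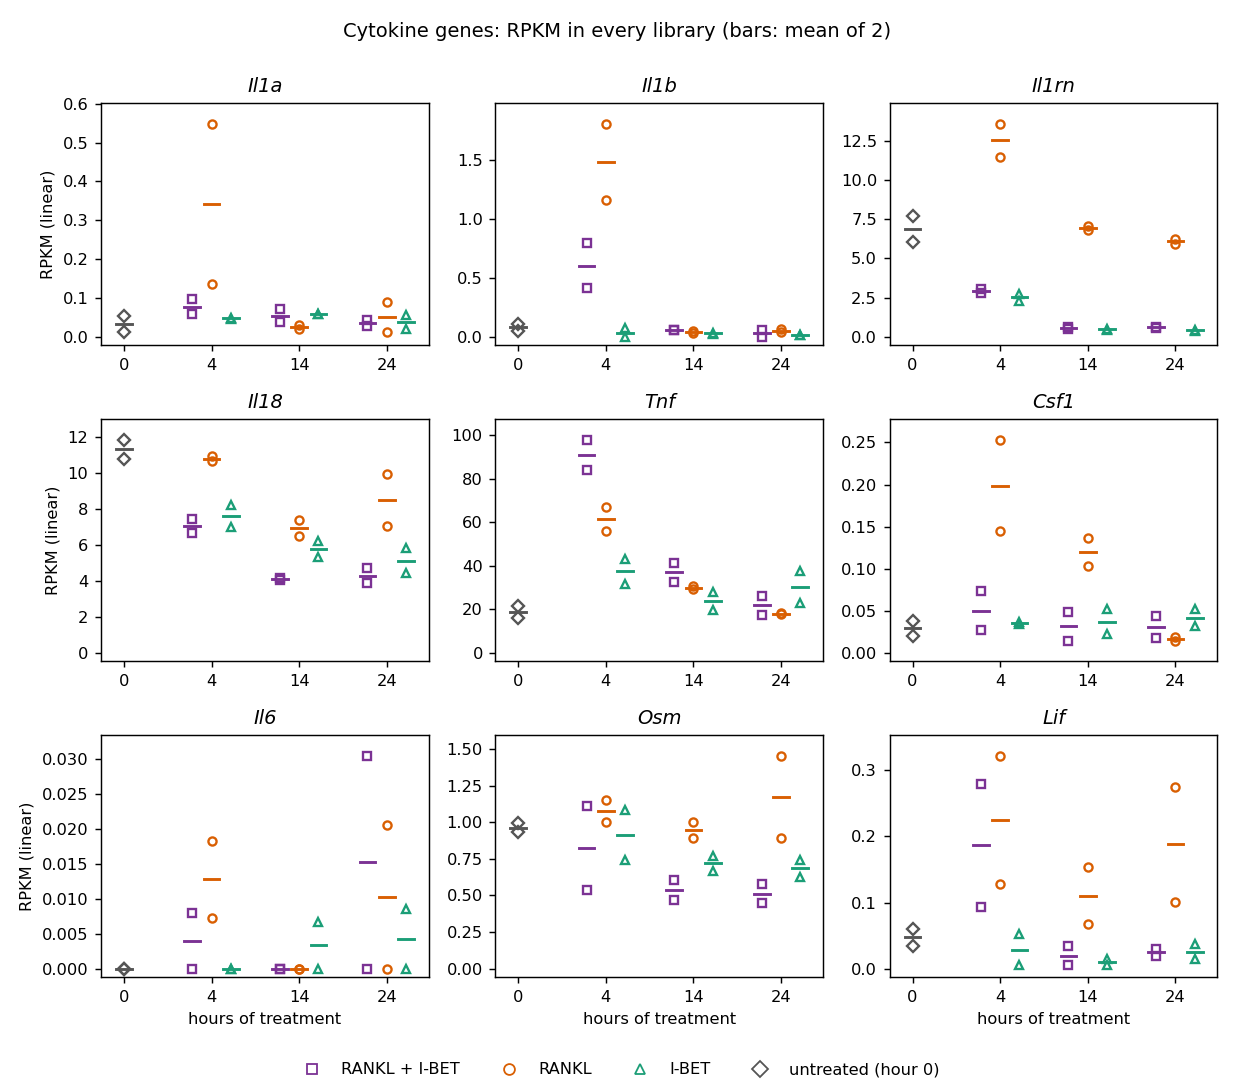
Each panel plots 1 gene, with hours of treatment on the x axis and RPKM on a linear y axis that differs between panels. Each symbol is a library and bars are means of 2. Il1rn lay between 0.387 and 0.619 RPKM in every library with I-BET at 14 and 24 hours.

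Il1rn, the IL-1 receptor antagonist gene, had the largest call under I-BET, with RANKL and without it. It lies on chromosome 2 (mm10, 24336853 to 24351494, plus strand). At 4 hours its level was 3.06 and 2.78 RPKM with RANKL plus I-BET, against 11.5 and 13.6 RPKM with RANKL alone. By 14 hours it was 0.608 and 0.479 RPKM with RANKL plus I-BET, against 6.82 and 7.11 RPKM with RANKL alone. At 24 hours the values were 0.619 and 0.569 RPKM with RANKL plus I-BET, against 5.95 and 6.25 RPKM with RANKL alone. The groups did not overlap at any hour. In edgeR's quasi-likelihood test with Benjamini-Hochberg adjustment over 16042 genes, which gave every adjusted p below unless another tool is named, Il1rn fell 4.36-fold at 4 hours (log2 fold change -2.12, SE 0.14, adjusted p = 2.26e-06). The fall was 13.4-fold at 14 hours (log2 -3.74, SE 0.16, adjusted p = 2.15e-08) and 10.5-fold at 24 hours (log2 -3.39, SE 0.16, adjusted p = 2.51e-08).

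Il1rn was also lower with I-BET alone than in untreated cells. Its level was 2.75 and 2.29 RPKM with I-BET alone at 4 hours, against 7.69 and 6.07 RPKM in untreated cells. I-BET alone for 14 hours gave 0.517 and 0.426 RPKM, and for 24 hours 0.458 and 0.387 RPKM. No library with I-BET alone reached the level of an untreated library. The log2 fold changes were -1.59 at 4 hours (SE 0.14, adjusted p = 2.59e-05), -3.95 at 14 hours (SE 0.16, adjusted p = 2.01e-08) and -4.09 at 24 hours (SE 0.16, adjusted p = 1.37e-08). The I-BET effect with RANKL minus that without was 0.70 at 24 hours on the log2 scale (95% interval 0.24 to 1.15, adjusted p = 0.0810), and it passed with the library number as a block (adjusted p = 0.0165) and in DESeq2 (0.0367). None of the 8 genes tested was called for this difference at any hour, against 0, 2.78 and 5.25% of all genes. At an unadjusted p under 0.05 only Il1rn of the 8 was counted at 4 and at 24 hours and none at 14 hours. Over all genes 702, 1974 and 2802 were counted at 4, 14 and 24 hours. DESeq2 called none of the 8 at 4 and 14 hours.

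The I-BET effect on Il1rn in RANKL-treated cells was larger at 24 than at 4 hours. This difference of effects was -1.27 on the log2 scale (SE 0.20, 95% interval -1.71 to -0.83, adjusted p = 0.00152), in a comparison added after the data were seen. Of all genes 7.28% were called in it, and Il1rn was 1 of the 8 cytokine genes. With the block, Csf1 (2.73, adjusted p = 0.0409) and Lif (-2.49, adjusted p = 0.00587) were called as well. That fit called 3514 of 16042 genes. With limma on log2(RPKM + 1) the difference for Il1rn was -0.37 (adjusted p = 0.198), a scale that understates changes at low RPKM.

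**Figure D2:**
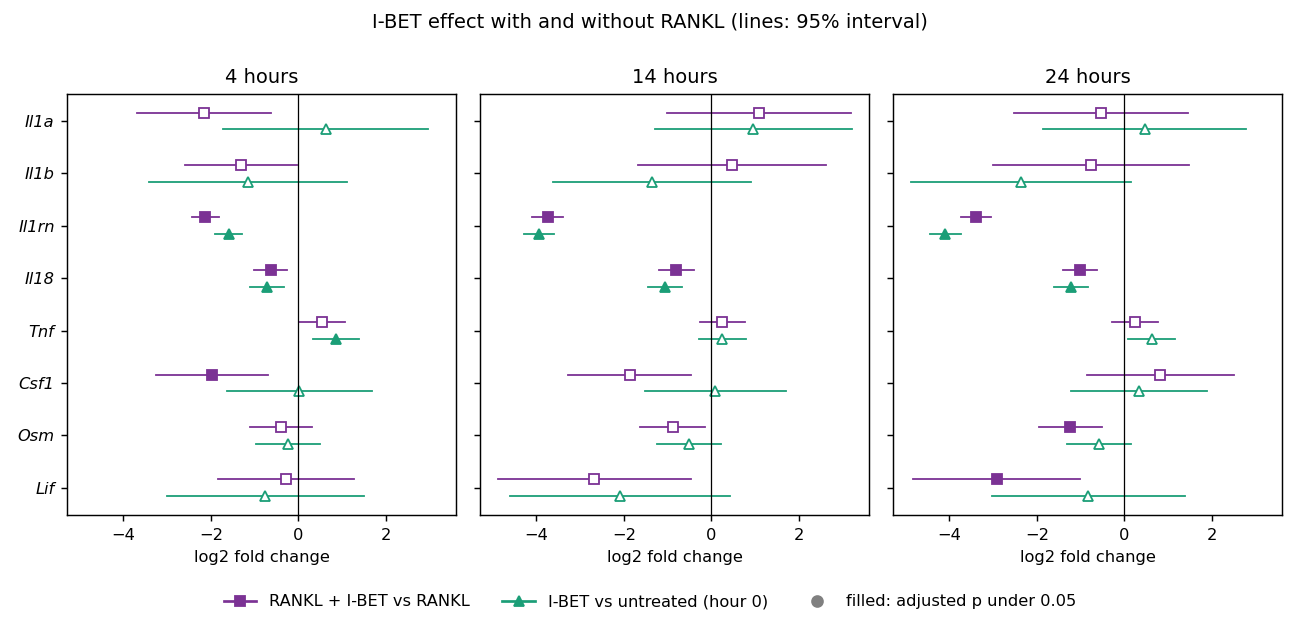
Log2 fold changes (x axis) of 8 genes under I-BET at 4, 14 and 24 hours, for RANKL plus I-BET against RANKL (squares) and I-BET against untreated cells (triangles). Lines are 95% intervals and filled symbols passed an adjusted p of 0.05, as Il1rn and Il18 did in all 6 comparisons.

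Il1b rose at 4 hours of RANKL and was low in all later libraries. The gene encodes the secreted form of IL-1 and lies on chromosome 2 (mm10, 129364570 to 129371139, minus strand), where the antisense gene Il1bos overlaps it. Since the strand setting of the counting is not given in the sources used here, reads of the 2 genes cannot be told apart. RANKL alone for 4 hours gave 194 and 99 counts (1.80 and 1.16 RPKM), against 4 and 4 counts (0.110 and 0.0522 RPKM) in untreated cells. That is 18.6-fold higher with RANKL (log2 4.22, SE 0.78, adjusted p = 0.00732). The call was lost without untreated library 2 (adjusted p = 0.159) and without RANKL library 1 (0.0599). At 14 and 24 hours of RANKL alone the counts were 3 to 5, and the log2 fold changes against 4 hours were -5.03 (SE 0.78, adjusted p = 0.000582) and -4.77 (SE 0.78, adjusted p = 0.000539).

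With RANKL plus I-BET at 4 hours, Il1b had 78 and 33 counts (0.791 and 0.412 RPKM), below both libraries of RANKL alone and above both of I-BET alone, which had 6 and 0 counts (0.0713 and 0 RPKM). Against RANKL alone the log2 fold change was -1.31 (95% interval -2.60 to -0.02, adjusted p = 0.210). It passed with the block (adjusted p = 0.0146), with no filter on low counts (0.0496) and with limma on log2(RPKM + 1) (0.0116). Against I-BET alone the log2 fold change was 4.05 (SE 0.82, adjusted p = 0.0455). Leaving out any of these 4 libraries ended the call against I-BET alone (adjusted p 0.0587 to 0.453), and the log2 value was 8.68 without I-BET library 1 and 3.11 without I-BET library 2.

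Il1a, whose product also acts inside cells and at their surface, had a similar course at lower levels. It lies on chromosome 2 (mm10, 129299610 to 129309972, minus strand), overlapped on the opposite strand by Gm14023. RANKL alone for 4 hours gave 61 and 12 counts (0.548 and 0.135 RPKM), against 2 and 1 counts (0.0532 and 0.0126 RPKM) in untreated cells. The groups did not overlap, but the RANKL libraries differed from each other widely. Scaled to library sizes after TMM normalization the ratio was 13.3, with an exact 95% binomial interval of 4.36 to 65.8 that covers counting error only. The edgeR log2 fold change was 3.52 (SE 0.90, adjusted p = 0.0464). Its call was lost without untreated library 1 (4.47, adjusted p = 0.106), untreated library 2 (2.66, adjusted p = 0.464) or RANKL library 1 (2.21, adjusted p = 0.411). RANKL plus I-BET gave 6 and 8 counts at 4 hours (0.0588 and 0.0964 RPKM), a log2 fold change of -2.15 against RANKL alone (95% interval -3.68 to -0.62, adjusted p = 0.0707; 0.0108 with the block). This fall also passed with no filter on low counts (adjusted p = 0.0456), and without RANKL library 2 it was -2.79.

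The IL-1 antagonist exceeded both agonists in each library on the RPKM scale. At 4 hours of RANKL alone Il1rn also rose 1.75-fold over untreated cells (log2 0.81, SE 0.14, adjusted p = 0.00453). That call was lost without untreated library 2 (adjusted p = 0.107) and without RANKL library 2 (0.0788). Against 4 hours it was lower at 14 hours (log2 -0.78, adjusted p = 0.00148) and at 24 hours of RANKL alone (-1.02, adjusted p = 0.000127). Il1b and Il1rn thus had their highest mean levels at 4 hours of RANKL alone.

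Il18 was lower under I-BET at each hour, by less than Il1rn. The gene lies on chromosome 9 (mm10, 50575273 to 50581837, plus strand). At 4 hours it had 7.45 and 6.62 RPKM with RANKL plus I-BET, against 10.6 and 10.9 RPKM with RANKL alone. At 14 hours the values were 4.16 and 4.06 RPKM with RANKL plus I-BET, against 7.39 and 6.47 RPKM with RANKL alone. At 24 hours they were 4.69 and 3.88 RPKM with RANKL plus I-BET, against 7.06 and 9.93 RPKM with RANKL alone. No hour showed an overlap of these groups. The falls were 1.55-fold (log2 -0.64, SE 0.18, adjusted p = 0.0316), 1.74-fold (log2 -0.80, SE 0.18, adjusted p = 0.00594) and 2.04-fold (log2 -1.03, SE 0.18, adjusted p = 0.000729). The 4-hour call was lost when any of its 4 libraries was left out (adjusted p 0.0982 to 0.191), and the 14-hour call without RANKL library 1 (0.0560).

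With I-BET alone, Il18 had 8.22 and 7.01 RPKM at 4 hours, 6.20 and 5.34 RPKM at 14 hours and 5.84 and 4.40 RPKM at 24 hours, against 11.8 and 10.8 RPKM in untreated cells. All 6 values were below both untreated libraries. The log2 fold changes were -0.72 (SE 0.18, adjusted p = 0.0203), -1.06 (SE 0.18, adjusted p = 0.00122) and -1.22 (SE 0.18, adjusted p = 0.000305). The first was lost without untreated library 1 (0.0807), untreated library 2 (0.132) or I-BET library 2 (0.186). RANKL alone for 14 hours was 1.63-fold below untreated cells (log2 -0.71, SE 0.18, adjusted p = 0.0130), a call lost without untreated library 1 (0.0546), untreated library 2 (0.0877) or RANKL library 2 (0.0968). At 24 hours the log2 fold change was -0.45 (adjusted p = 0.0975; 0.0295 with the block; 0.0159 without RANKL library 2).

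Tnf, on chromosome 17 (mm10, 35199381 to 35202007, minus strand), had its highest levels at 4 hours and was not called lower under I-BET. RANKL plus I-BET gave 84.1 and 97.8 RPKM at 4 hours, against 56.1 and 67.0 RPKM with RANKL alone, so that the groups did not overlap. The log2 fold change was 0.54 (95% interval 0.02 to 1.06, adjusted p = 0.196). With no filter on low counts this rise was called (0.53, adjusted p = 0.0136). At 14 hours the levels were 41.1 and 32.6 RPKM with RANKL plus I-BET, against 30.5 and 29.3 RPKM with RANKL alone (log2 0.25, interval -0.27 to 0.78, adjusted p = 0.533). At 24 hours they were 26.0 and 17.4 RPKM with RANKL plus I-BET, against 18.1 and 17.6 RPKM with RANKL alone, and here the groups overlapped (log2 0.25, interval -0.28 to 0.77, adjusted p = 0.506).

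Against untreated cells at 21.5 and 16.03 RPKM, Tnf rose 3.16-fold at 4 hours of RANKL alone (log2 1.66, SE 0.25, adjusted p = 0.00176; 0.0521 without untreated library 2). It then fell, by log2 -0.98 at 14 hours (adjusted p = 0.0133) and -1.77 at 24 hours (adjusted p = 0.000174) against 4 hours. The 14-hour call was lost without RANKL 4-hour library 2 (0.0983) or either 14-hour library (0.0705 and 0.0746). Over untreated cells, the log2 fold change of RANKL alone was 0.68 at 14 hours (adjusted p = 0.0738), with both libraries higher. It passed with no filter on low counts (0.000255), in DESeq2 (0.0468) and with only the libraries compared (0.0418). At 24 hours it was -0.11 (adjusted p = 0.826). I-BET alone gave 31.7 and 43.3 RPKM at 4 hours, 27.8 and 19.5 RPKM at 14 hours and 37.5 and 23.0 RPKM at 24 hours. Only the 4-hour rise over untreated cells was called (log2 0.86, SE 0.25, adjusted p = 0.0415), and it was lost without untreated library 1 (0.107), untreated library 2 (0.258) or I-BET library 2 (0.307). The 24-hour log2 fold change was 0.62 (adjusted p = 0.106), and 0.92 without I-BET library 2. With no filter on low counts the 24-hour rise was called (0.64, adjusted p = 0.000955). RANKL plus I-BET at 4 hours was 2.54-fold above I-BET alone (log2 1.34, SE 0.25, adjusted p = 0.0271), and leaving out any of these 4 libraries ended that call (0.0772 to 0.346).

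Csf1, on chromosome 3 (mm10, 107741048 to 107760469, minus strand), had at most 60 counts in any library. At 4 hours it had 20 and 6 counts (0.0732 and 0.0270 RPKM) with RANKL plus I-BET, against 43 and 60 counts (0.144 and 0.253 RPKM) with RANKL alone. It fell 3.94-fold (log2 -1.98, SE 0.59, adjusted p = 0.0462), without overlap, and leaving out any of these libraries ended the call (0.0576 to 0.294). At 14 hours there were 2 and 11 counts with RANKL plus I-BET, against 27 and 37 counts with RANKL alone (log2 -1.87, adjusted p = 0.0549; 0.0148 with the block). At 24 hours there were 11 and 5 counts with RANKL plus I-BET, against 4 and 3 counts with RANKL alone (log2 0.82, 95% interval -0.860 to 2.505, adjusted p = 0.484). In untreated cells Csf1 had 2 and 8 counts, so that RANKL alone at 4 hours was 5.96-fold higher (log2 2.58, SE 0.67, adjusted p = 0.0483). That call too was lost when any of its 4 libraries was left out (0.0769 to 0.261). After 14 hours of RANKL alone the log2 fold change over untreated cells was 1.92 (adjusted p = 0.0665; 0.0197 with the block). From 4 to 24 hours of RANKL alone Csf1 fell by 3.54 on the log2 scale (SE 0.70, adjusted p = 0.00219).

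Of the gp130 cytokines, Osm and Lif were lower with RANKL plus I-BET at 24 hours. Both genes lie on chromosome 11 (mm10), Osm at 4236420 to 4241026 and Lif at 4257557 to 4272514, on the plus strand. Osm had 0.575 and 0.448 RPKM with RANKL plus I-BET at 24 hours, against 0.889 and 1.45 RPKM with RANKL alone. The groups did not overlap and the fall was 2.35-fold (log2 -1.23, SE 0.34, adjusted p = 0.0147; lost without RANKL library 2 at 0.157 or RANKL plus I-BET library 2 at 0.123). At 14 hours Osm had 0.602 and 0.471 RPKM with RANKL plus I-BET, against 0.892 and 1.001 RPKM with RANKL alone (log2 -0.88, adjusted p = 0.0892; 0.0175 with the block). The 4-hour groups overlapped (0.536 and 1.11 RPKM with RANKL plus I-BET, against 1.15 and 0.999 RPKM with RANKL alone). Osm was not called against untreated cells (0.993 and 0.931 RPKM) under either agent alone, where its levels ran from 0.629 to 1.45 RPKM.

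Lif, a factor known from stem cell self-renewal and bone turnover, had 4 and 7 counts (0.0191 and 0.0298 RPKM) with RANKL plus I-BET at 24 hours, against 48 and 18 counts (0.275 and 0.101 RPKM) with RANKL alone. It fell 7.57-fold (log2 -2.92, SE 0.88, adjusted p = 0.0247). The call was lost without RANKL library 1 (-2.05, adjusted p = 0.214), RANKL plus I-BET library 1 (0.145) or RANKL plus I-BET library 2 (0.0981). At 14 hours Lif had 4 and 1 counts with RANKL plus I-BET, against 33 and 15 counts with RANKL alone (log2 -2.67, adjusted p = 0.0806; 0.00137 with the block). The 4-hour counts overlapped, at 63 and 17 with RANKL plus I-BET against 79 and 25 with RANKL alone (log2 -0.28, 95% interval -1.84 to 1.28, adjusted p = 0.916). Thus the groups of Lif separated at 14 and 24 hours and not at 4 hours.

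Against untreated cells (5 and 6 counts), Lif was not called with RANKL alone at 4 hours (log2 2.24, adjusted p = 0.226) or at 24 hours (log2 1.999, adjusted p = 0.149). It passed with the block (0.00519 and 0.00642) and with no filter on low counts (0.00534 and 0.0117). In RANKL plus I-BET against I-BET alone at 4 hours (10 and 1 counts with I-BET alone; log2 2.71, adjusted p = 0.424) it likewise passed with the block (0.00206) and with no filter (0.000737). For I-BET alone at 14 hours against untreated cells (4 and 1 counts with I-BET; log2 -2.09, adjusted p = 0.313) it passed with the block (0.0218). Library 1 held more Lif counts than library 2 in each group of RANKL alone. Il6, on chromosome 5 (mm10, 30013161 to 30019968, plus strand), had 12 counts in all 20 libraries and was not tested. Its group sums were 4 counts with RANKL plus I-BET at 24 hours, 3 with RANKL alone at 4 hours, and 0 in untreated cells, where 3 counts would correspond to 0.0506 CPM.

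Set against all genes, the cytokine genes were called as follows. Between both agents together and RANKL alone, 3, 2 and 4 of the 8 tested genes were called at 4, 14 and 24 hours, all of them lower, while 6.46, 11.2 and 12.9% of all genes were called lower. With the block these counts were 5, 5 and 4, where 4507, 6454 and 7475 of 16042 genes were called in either direction. The median log2 fold change of the 8 genes was -0.97, -0.84 and -0.90, against 0.00, -0.03 and -0.05 over all genes. Il1a and Il1b passed the filter only through 4-hour libraries with RANKL. The 4-hour median and their 4-hour calls with the block therefore cannot be set against all genes. Il1rn and Il18 were called at each hour, Csf1 at 4 hours, and Osm and Lif at 24 hours. With I-BET alone against untreated cells, Il1rn and Il18 were called lower at each hour, against 6.48, 8.37 and 10.2% of all genes, and Tnf higher at 4 hours, against 4.03%.

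In RANKL against untreated cells, 5 of the 8 genes were called at 4 hours (Il1a, Il1b, Il1rn, Tnf and Csf1), all higher, while 2.08% of all genes were called higher. Il1a and Il1b passed the filter only through 4-hour libraries with RANKL, so their calls cannot be set against that share. Without untreated library 2, which carried the ribosomal RNA signal, these calls were lost, and fewer of all genes were called too. In that fit, with 1 untreated library, the log2 fold changes were 2.66 for Il1a, 3.74 for Il1b, 0.72 for Il1rn, 1.53 for Tnf and 3.30 for Csf1. When the 5 genes of that signal were removed instead, 5 of the 8 were called, and 610 of 16072 genes. Only Il18 was called at 14 hours, lower (10.1% of all genes were), and none at 24 hours, where 18.9% of all genes were called in either direction. At 24 hours Lif and Il18 were under an unadjusted p of 0.05, as were 4855 of 16042 genes. The block fit called both and 5901 of all genes, while DESeq2 called 0 of the 8 and 3348 of all genes. The median log2 fold change of the 8 genes was 1.95, 0.00 and -0.16, against 0.01, 0.03 and 0.05 over all genes. The 4-hour median includes Il1a and Il1b, so by the same limit it cannot be set against that of all genes. Compared with 4 hours of RANKL alone, in comparisons added after the data were seen, 5 genes were lower at 14 hours (Il1a, Il1b, Il1rn, Il18 and Tnf; 9.71% of all genes were lower). At 24 hours 5 were lower (Il1a, Il1b, Il1rn, Tnf and Csf1), against 12.6% of all genes. The same limit of the filter holds for Il1a and Il1b at both hours.

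Among these late falls, those of Il1a and Il18 were the least stable. For Il1a the log2 fold change was -3.63 at 14 hours (adjusted p = 0.00718), lost without RANKL 4-hour library 1 (-2.33, adjusted p = 0.137) or either 14-hour library (0.0657 and 0.0503). It was -2.72 at 24 hours (adjusted p = 0.0199), lost without RANKL 4-hour library 1 (-1.44, adjusted p = 0.330) or 24-hour library 2 (-1.95, adjusted p = 0.136). The Il18 fall at 14 hours (-0.57, adjusted p = 0.0375) was lost without any of its 4 libraries (0.103 to 0.208). Of RANKL plus I-BET against I-BET alone, Il1b and Tnf were called at 4 hours, both higher, against 0.48% of all genes. Il1b passed the filter through these RANKL plus I-BET libraries and those of RANKL alone, so its call cannot be set against that share. None of the 8 was called at 14 or 24 hours by edgeR, where 0.904 and 0.262% of all genes were called in either direction. Of the 8, 2 and 1 were under an unadjusted p of 0.05, as were 1439 and 902 of 16042 genes. DESeq2 called 0 of the 8, and 426 and 142 of all genes.

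**Figure D3:**
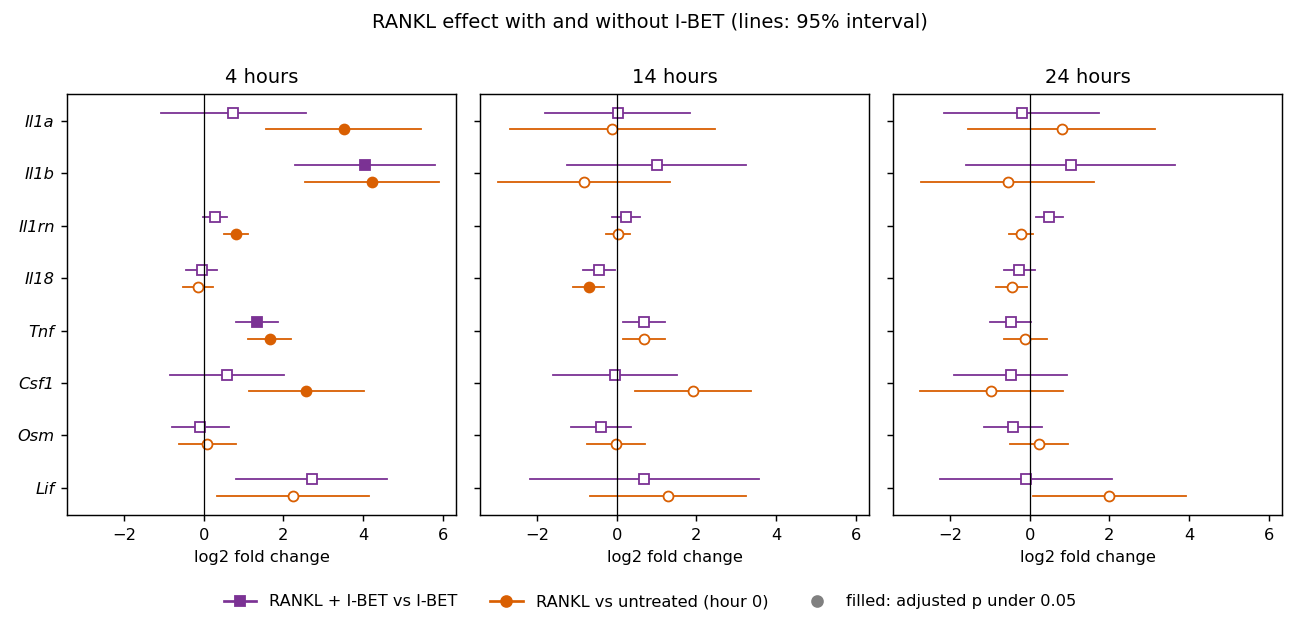
Log2 fold changes (x axis) of 8 genes under RANKL at 4, 14 and 24 hours, for RANKL plus I-BET against I-BET (squares) and RANKL against untreated cells (circles). Lines are 95% intervals and filled symbols passed an adjusted p of 0.05, which 5 genes did at 4 hours of RANKL alone.

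Receptor genes of these cytokines moved in both directions. Of 11 tested receptors, 1, 3 and 4 were higher in RANKL plus I-BET than in RANKL alone at 4, 14 and 24 hours (4.93, 10.8 and 13.9% of all genes were), and 2, 1 and 0 lower (6.46, 11.2 and 12.9%). With the block the totals called at 4 and 14 hours were 5 and 8, where 4507 and 6454 of 16042 genes were called. Lifr, the LIF receptor chain that pairs with gp130, was the largest rise at each hour, with 0.124 and 0.108 RPKM in RANKL plus I-BET against 0.0532 and 0.0517 RPKM in RANKL alone at 4 hours. At 24 hours it had 0.145 and 0.181 RPKM with RANKL plus I-BET, against 0.0217 and 0.0213 RPKM with RANKL alone and 0.300 and 0.352 RPKM in untreated cells. The log2 fold changes against RANKL alone were 1.12 (adjusted p = 0.0399), 3.77 (2.97e-05) and 2.88 (5.42e-05), the first lost without any of its 4 libraries (0.110 to 0.185). Lifr was lower with RANKL alone than in untreated cells, by log2 -2.72, -5.38 and -3.97 (adjusted p = 0.000314, 1.47e-06 and 4.23e-06). Il18rap, the accessory chain of the IL-18 receptor, had 0.994 and 0.916 RPKM with RANKL plus I-BET at 4 hours, against 4.06 and 3.84 RPKM with RANKL alone (log2 -2.07, SE 0.17, adjusted p = 1.03e-05). Against untreated cells RANKL alone gave 1, 1 and 0 receptors higher (2.08, 8.31 and 8.04% of all genes were) and 1, 7 and 8 lower (1.83, 10.1 and 10.9%).

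Il1rap, the accessory chain of the IL-1 receptor, was the receptor called higher under RANKL, by log2 0.72 at 4 hours (adjusted p = 0.00584) and 0.43 at 14 hours (adjusted p = 0.0344). Without untreated library 2 these were 0.63 (adjusted p = 0.112) and 0.34 (adjusted p = 0.249), without RANKL library 2 0.62 (adjusted p = 0.0677) and 0.44 (adjusted p = 0.1003), and the later call was also lost without untreated library 1 (0.0604) or RANKL library 1 (0.134). At 14 hours it was lower with RANKL plus I-BET than with RANKL alone (log2 -0.52, adjusted p = 0.00997), a call lost without library 1 of either group (0.0635 without that of RANKL and 0.0811 without that of RANKL plus I-BET).

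Genes of cytokine processing and signalling were tested in full, 25 of 25. In RANKL plus I-BET against RANKL, 6, 7 and 10 were higher (against 4.93, 10.8 and 13.9% of all genes) and 3, 5 and 5 lower (6.46, 11.2 and 12.9%) at 4, 14 and 24 hours. With the block 8 were higher and 9 lower at 4 hours, where 4507 of 16042 genes were called, 2202 of them higher. Ptgs2, which encodes the inducible prostaglandin synthase COX-2, had 15.2 and 12.03 RPKM with RANKL plus I-BET at 4 hours, against 50.3 and 44.0 RPKM with RANKL alone and 11.3 and 7.83 RPKM in untreated cells. It fell by 1.81 on the log2 scale against RANKL alone (SE 0.28, adjusted p = 0.00104), after a rise of 2.24 with RANKL over untreated cells (SE 0.29, adjusted p = 0.000516). Zfp36, whose product binds AU-rich elements of Tnf and other cytokine transcripts and promotes their decay, had 27.3 and 28.7 RPKM with RANKL plus I-BET at 4 hours, against 13.9 and 15.1 RPKM with RANKL alone. It rose by log2 0.93 (SE 0.21, adjusted p = 0.0108), a call lost without RANKL library 1 (0.0992) or RANKL plus I-BET library 2 (0.0710).

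Irak3, an inhibitory kinase relative of the IL-1 receptor pathway, was the largest rise at the later hours, with log2 fold changes of 1.67 at 14 hours (adjusted p = 2.89e-05) and 2.54 at 24 hours (adjusted p = 7.61e-07). At 24 hours it had 4.18 and 4.30 RPKM with RANKL plus I-BET, against 0.760 and 0.665 RPKM with RANKL alone and 3.68 and 2.81 RPKM in untreated cells. Gsdmd, the pore-forming gasdermin through which mature IL-1 beta and IL-18 leave cells, fell by 1.27 on the log2 scale at 14 hours (adjusted p = 0.000179), with 22.9 and 24.2 RPKM in RANKL plus I-BET against 48.3 and 61.2 RPKM in RANKL alone. Casp4, the caspase that cleaves it upon intracellular lipopolysaccharide, fell by 1.497 on the log2 scale at 24 hours (adjusted p = 4.21e-06), with 1.57 and 1.33 RPKM against 4.24 and 3.77 RPKM. RANKL alone against untreated cells gave 6, 1 and 2 genes of this list higher (2.08, 8.31 and 8.04% of all genes were) and 0, 8 and 10 lower (1.83, 10.1 and 10.9%). With the block 10 were called at 4 hours (7 higher) and 16 at 14 hours (6 higher). Of 16042 genes, the block fit called 2325 (1078 higher) and 5827 (3068 higher). Fewer of this list, and fewer of all genes, were called higher at 4 hours without untreated library 2.

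Of 22 further cytokine genes 12 were tested. In RANKL plus I-BET against RANKL, 1, 3 and 4 were higher (all genes: 4.93, 10.8 and 13.9%) and 3, 3 and 4 lower (6.46, 11.2 and 12.9%) at 4, 14 and 24 hours. In the block fit 2 were higher and 6 lower at 4 hours, where 4507 of 16042 genes were called, 2202 of them higher. Il34, whose product is the other ligand of the CSF-1 receptor besides CSF-1, had 1 count in both libraries together with RANKL plus I-BET at 14 hours, against 132 counts with RANKL alone. Scaled to library sizes after TMM normalization that is 94.4-fold lower, with an exact 95% interval of 16.6 to 3755 for counting error. At 24 hours there was no Il34 count with RANKL plus I-BET, against 53 with RANKL alone. With 3 counts put in place of 0 that is 22.8-fold lower, and the exact lower bound for counting error is 17.9-fold. At 4 hours the log2 fold change was -3.48 (6 against 76 counts, adjusted p = 0.0109), lost without RANKL plus I-BET library 1 (-2.62, adjusted p = 0.0978). Untreated cells held 3 counts. Il34 was high only in the groups of RANKL alone and passed the filter on low counts through these libraries. Its falls therefore cannot be set against the shares of all genes.

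Tnfsf14, which encodes the TNF relative LIGHT, went the other way. It had 35 counts at 14 hours and 81 at 24 hours with RANKL plus I-BET, against 1 count at each of these hours with RANKL alone. The ratios scaled to library sizes after TMM normalization were 49.0 (exact interval 8.23 to 1988) and 62.9 (10.97 to 2514), with edgeR adjusted p = 0.00158 and 0.000461. Tnfsf9, another TNF relative, was higher at 4 hours (log2 1.16, adjusted p = 0.0306), a call lost without RANKL library 1 (0.235), RANKL library 2 (0.0569) or RANKL plus I-BET library 2 (0.298).

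**Figure D4:**
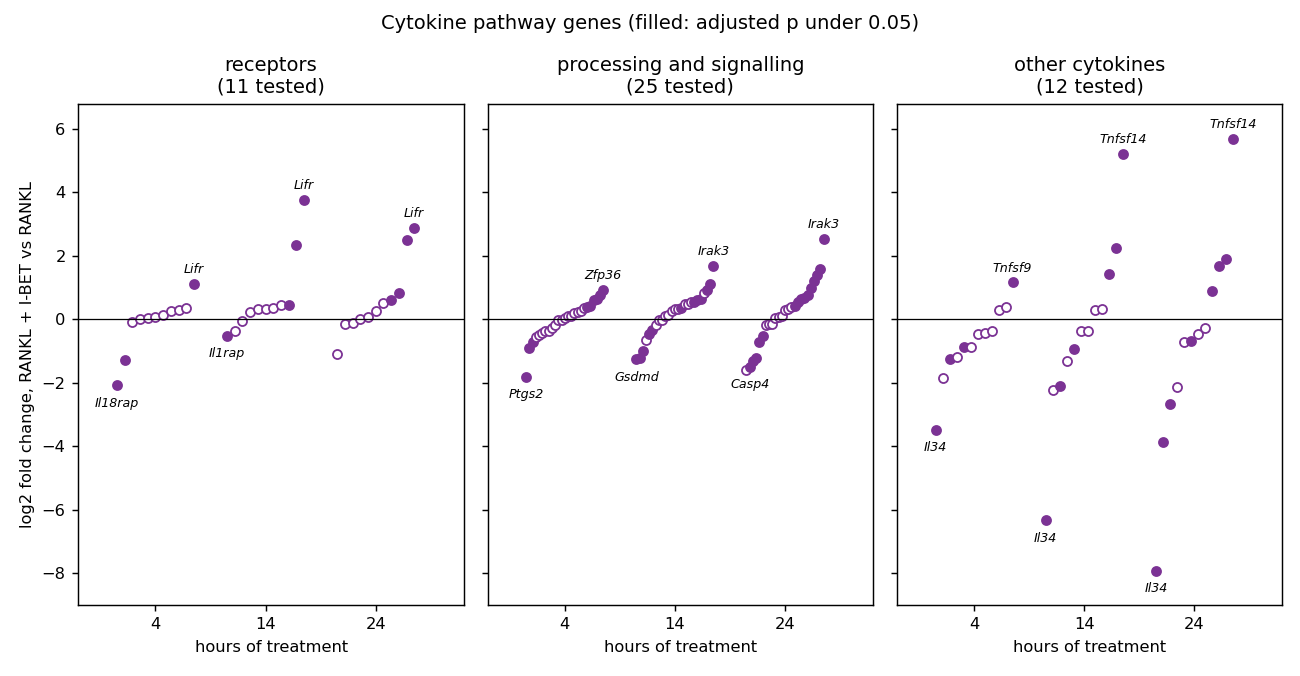
Log2 fold change (y axis) of each tested gene of 3 lists for both agents together against RANKL alone at 4, 14 and 24 hours (x axis), sorted within an hour. Filled points passed an adjusted p of 0.05, and the largest called rise and fall are named. The Il34 points at 14 and 24 hours rest on 1 and 0 counts with RANKL plus I-BET, so their fitted positions depend on the model's prior count.

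Over the 10 group means of log2 CPM, the profile of Il1rn was most like those of Mettl22 (Pearson r 0.991), Mettl21b (0.988) and Oasl1 (0.985) among genes with a mean of at least 1 CPM. For Il18 these were Ech1 (0.990), Dennd1c (0.989) and Irak1 (0.985), for Tnf Abhd13 (0.975), Dcp1a (0.958) and Txnrd1 (0.948), and for Osm Eng (0.979), Letmd1 (0.970) and Ptpn21 (0.962). The genes with few counts were less closely matched, with Jag1 first for Il1a (0.955), Dus2 for Il1b (0.945), Myo1e for Lif (0.946) and G6pc3 for Csf1 (0.927). Among the cytokine genes themselves, Il18 and Osm (0.912) and Il18 and Il1rn (0.898) were most alike, while Tnf had r of 0.20 with Il1rn and 0.01 with Osm. All these values share the same libraries and depths and are descriptions.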

How the data were processed

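Polyadenylated RNA from 20 RAW264.7 libraries was sequenced as paired-end reads, per the labels' protocols. Reads were checked with FastQC, aligned to GRCm38 (mm10) by STAR 2.5.3a, and groups were compared by DESeq2 1.16.1, per the submitters' processing notes. The authors deposited raw counts per gene and an RPKM table made from the same reads. Neither counting tool nor strand setting is given in the sources used here. Symbols came from the deposited table for 42745 genes and from GENCODE M21 for 7915 of 50686.

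The main tests used edgeR 4.0.16 (R 4.3.3) with TMM scaling on 16042 genes that passed filterByExpr. A mean was fitted per group over the 20 libraries, leaving 10 degrees of freedom, followed by the robust quasi-likelihood F test and Benjamini-Hochberg adjustment over all tested genes, with calls at an adjusted p under 0.05. Of 18 comparisons 15 were planned and 3 (RANKL at 14 and 24 hours against 4 hours, and the change of the I-BET effect) were added after the data were seen. Alternatives were RLE factors, no filter, a filter of 1 CPM or more in 4 or more libraries, the library number as a block (alone or without untreated library 2), removal of ribosomal RNA genes (2 of the planned genes were in the table; a set of 5 was chosen after the data were seen), DESeq2 1.42.0, only the libraries compared, limma 3.58.1 on log2(RPKM + 1) or log2(RPKM + 0.1), and leaving out each library. Where 1 library remains in a group it is assumed to vary like the others. Same-numbered libraries deviated together in all 45 pairs of groups (correlation 0.221 to 0.596, median 0.454); the labels name no batch behind the number. Library totals of 19051780 to 62313792 set the precision, and intervals of counts are 95% exact binomial. The tests were tried on simulated counts.

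Named were all 9 cytokine genes and, of each pathway list, the called gene with the largest rise and the largest fall against RANKL or untreated cells; some falls and rises that this rule gives are not printed. The 9 genes and the lists were chosen with earlier results of these data known. Figures were drawn with matplotlib 3.10.9.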

Additional observations from a re-analysis of the deposited data

Results flagged for a closer look

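The effect of I-BET on Il1rn in RANKL-treated cells differed between hours by a direct test. The log2 fold change of both agents together over RANKL alone, taken at 24 hours minus that at 4 hours, was -1.27 (SE 0.20, edgeR adjusted p = 0.00152), and Il1rn was lower in both libraries with I-BET at either hour. The difference was -0.37 (adjusted p = 0.198) with limma on log2(RPKM + 1). Groups of 2 libraries are too small to look for outlying libraries within a group.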

How the results depend on the processing

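The counts below are of the 8 tested cytokine genes called at an adjusted p under 0.05. Between both agents together and RANKL alone at 4 hours the count was 3, and it was 6 with no filter, 5 with the replicate block and 1 with only the libraries compared; at 14 hours it was 2, and 4 with no filter, 5 with the block and 4 with DESeq2. In RANKL against untreated cells at 4 hours it was 5, and 6 with no filter or the block, 2 with either the CPM filter or only the libraries compared and 3 with limma on either RPKM scale. At 14 hours that count was 1, and 3 with no filter, 2 with the block, 2 with DESeq2 and 2 with only the libraries compared. At 24 hours it was 0, and 1 with no filter, 2 with the block and 1 with the block without untreated library 2. For RANKL plus I-BET against I-BET it was 2 at 4 hours, and 3 with no filter or the block, 1 with the CPM filter and 0 with limma on either scale or with only the libraries compared, and 0 at 14 hours, and 1 with no filter. The difference of I-BET effects at 24 hours gave 0, and 1 with the block, with the block without untreated library 2 and with DESeq2. For RANKL at 14 against 4 hours it was 5, and 3 with either the CPM filter or only the libraries compared, and at 24 against 4 hours 5, and 2 with the CPM filter and 3 with limma on either scale. The change of the I-BET effect gave 1, and 3 with no filter, 3 with the block and 0 with limma on log2(RPKM + 1). The CPM filter and the limma fits tested fewer of the genes.

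With 1 library left out, the count ran from 1 to 2, 1 to 2 and 2 to 3 for both agents together against RANKL alone at 4, 14 and 24 hours, from 0 to 3, 0 to 1 and 0 to 1 for RANKL against untreated cells, from 1 to 3 for I-BET against untreated cells at 4 hours, and from 2 to 3 for RANKL at 14 against 4 hours. For RANKL plus I-BET against I-BET at 4 hours it was 0 without any of the 4 libraries. Of single genes, 1868 values under an alternative kept their side of the threshold, 75 were lost and 41 gained, and no called change turned its direction. The replicate block added 14 calls, given beside the results, and changed no other call. The cause of these changes was not tested. Groups of 2 libraries and the low counts of Il1a, Il1b, Csf1, Lif and Il6 limit what can be called, and the share of genes called differed between settings, as between both agents together and RANKL alone at 4 hours (1828 genes called, 4507 with the block, 345 with only the libraries compared).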
